A study of Rattus norvegicus with 2 samples.

Results

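The antioxidant and redox genes are described here in the sympathetic neurons of the stellate ganglion, the sympathetic ganglion whose neurons innervate the heart. They were selected by a rule on gene symbols, which was set with earlier results of these data known. The rule took the superoxide dismutases and catalase, glutathione peroxidases, peroxiredoxins, and thioredoxins and glutaredoxins with their reductases. It also took glutathione synthesis enzymes, glutathione transferases, methionine sulfoxide reductases, quinone reductases, haem oxygenases, NADPH oxidase subunits, and Nfe2l2 with its partner Keap1. The rule found 67 of the 25395 genes used, and 41 of the 67 averaged at least 0.1 count per 10000 over both libraries. Ganglia were dissociated with collagenase and trypsin and their cells were sequenced in droplets, with 1 library for the normotensive Wistar and 1 for the prehypertensive SHR (spontaneously hypertensive rat), both from males 5 to 6 weeks old. No treatment or transgene is named for either strain. The SHR is an inbred strain with inherited hypertension and the Wistar an outbred stock, so a difference between the libraries cannot be told apart from other genetic differences of the strains, or from the preparation of a single library. The number of animals behind each library is not given in the sources used here. For each library the authors deposited 1 mean per gene over the neurons of the sympathetic cluster.

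Neurons make superoxide and hydrogen peroxide in mitochondrial respiration and, in sympathetic neurons, also when monoamine oxidase breaks down noradrenaline. Superoxide dismutases turn superoxide into hydrogen peroxide, which catalase, glutathione peroxidases and peroxiredoxins then reduce, with electrons drawn from NADPH through glutathione or thioredoxin. Glutathione transferases attach glutathione to reactive products such as the aldehydes of lipid peroxidation. The transcription factor Nfe2l2 (NRF2), held back by Keap1, raises many of these genes by binding antioxidant response elements (AREs) in their promoters.

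A level is given here as the mean count per 10000 counts of a neuron. The chemistry counts 3' ends of transcripts, so levels were not divided by gene length. The lowest deposited values fall on steps that a single count in a single neuron leaves, and from these steps the Wistar mean was taken over 315 neurons and the SHR mean over 110 neurons. A depth was recovered for 250 of the Wistar neurons, from 4010 to 227128 counts with a median of 89653, and for all 110 SHR neurons, from 4882 to 232544 with a median of 102781. Of these neurons 51 (20.4%) had fewer than 20000 counts in Wistar and 7 (6.36%) in SHR. Markers of other cell types were also higher in the Wistar neuron cluster. The 11 satellite glia and Schwann cell markers summed to 9.41 per 10000 in Wistar and 3.47 in SHR, the 7 fibroblast markers to 1.97 and 0.401, and the 10 immune markers to 1.41 and 0.477. The 15 sympathetic neuron markers, led by Prph, Snap25, Slc6a2 and Th, were all above 0 in both libraries and summed to 139.0 in Wistar and 144.1 in SHR. Prph and Snap25 carried the higher sum in SHR, while 10 of the 15 were lower there, 5 of them by at least 1.5-fold. Of all 7621 genes averaging at least 0.1 per 10000, 65.6% were lower in SHR and 26.5% at least 1.5-fold lower. The median ratio of SHR to Wistar was 0.852 over the 15 markers and 0.863 over all these genes. Dbh, which makes noradrenaline, was at 10.2 and 6.36, and Ddc, which makes dopamine, at 7.05 and 3.44. Npy was at 2.38 in Wistar and 1.48 in SHR. The paper describes distinct sympathetic neuron populations that differ mainly in Npy expression. Their shares in each deposited mean are not given in the sources used here. The part of these neurons of low depth and of these markers in the results was not tested. Intervals below are 95% Poisson intervals built from the step, and cover counting error only. They hold neither the spread between neurons nor the spread between animals, and since each strain has a single library the strains could not be tested against each other.

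Most of the redox genes had higher means in the SHR neurons. Of the 41 genes with an average of at least 0.1 per 10000, 32 were higher and 9 lower in SHR, where 34.4% of all 7621 genes past that minimum were higher and 65.6% lower. The median ratio of SHR to Wistar was 1.18 over the 41 genes and 0.863 over all genes past the minimum, and the median difference of log2 of 1 plus the mean was 0.10 and -0.05. A mean at least 1.5-fold apart stands in for a call here. By this size 5 of the 41 genes were higher in SHR (Gsta4, Msrb2, Gpx3, Prdx6 and Gpx4), against 5.22% of all genes. Lower by this size were 3 (Nox4, Gstm4 and Txnrd2), against 26.5% of all genes. Gsta4 passed the minimum through its SHR mean alone, and Nox4 through its Wistar mean alone. When the median ratio of all genes past the minimum was set to 1, the same size gave 13 genes higher, against 13.2% of all genes, and 2 lower, against 17.3%. Under that scaling 34 of the 41 were higher, against 3810 of all 7621 genes. Summed over all 67 genes, the level was 63.0 per 10000 in Wistar and 77.5 in SHR, 1.23-fold higher.

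**Figure D1:**
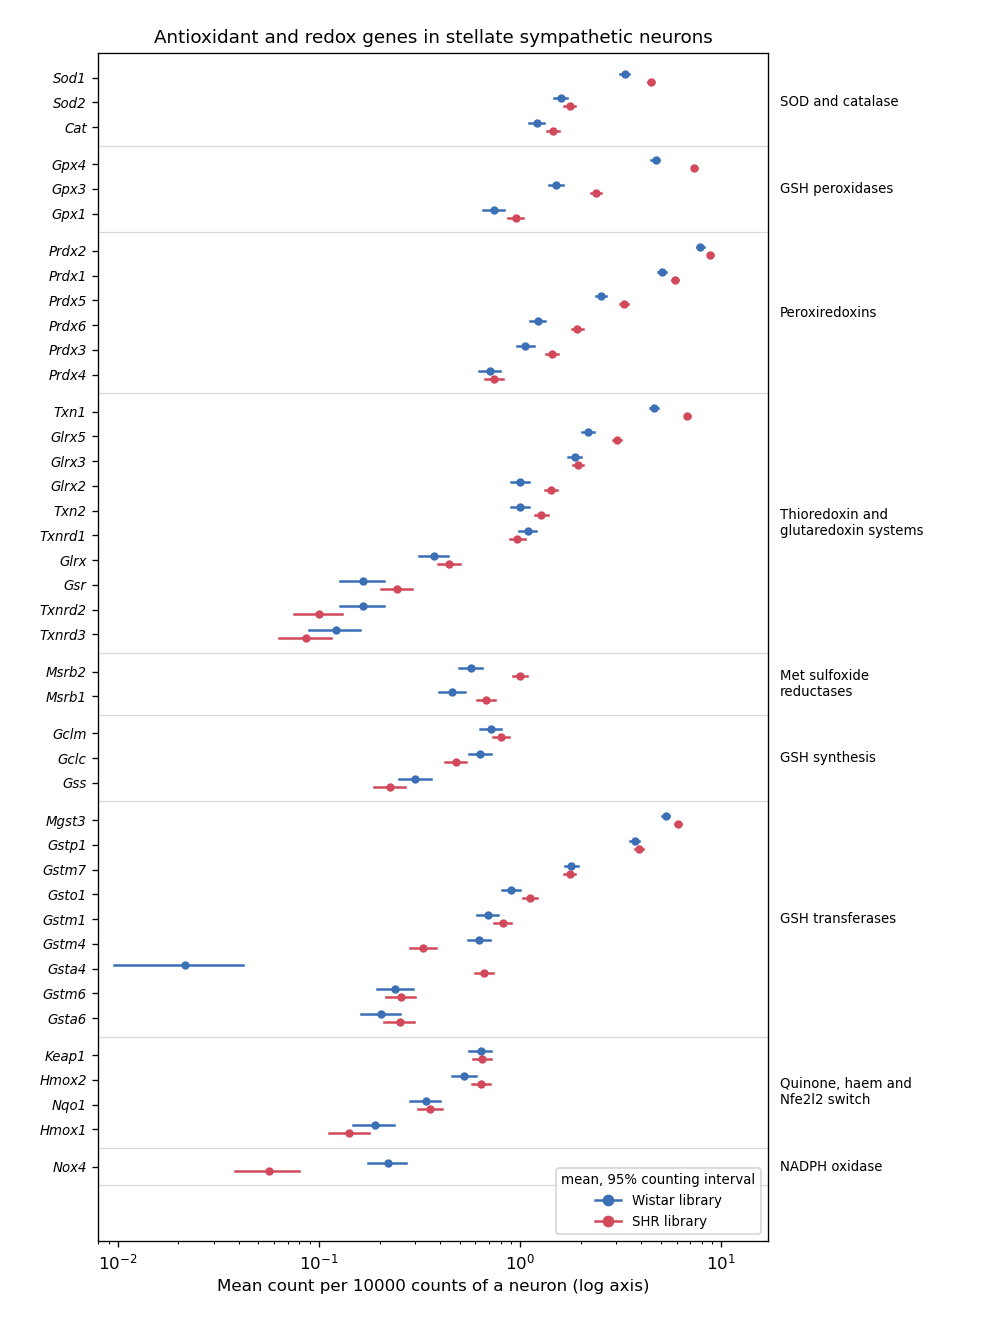
Mean count per 10000 counts of a neuron (log axis) for the 41 redox genes with an average of at least 0.1, grouped by role, in the Wistar (blue) and SHR (red) libraries. Points are the means over 315 and 110 neurons and bars are 95% counting intervals. The SHR point lies to the right for 32 genes, and Gsta4 and Nox4 show the widest gaps.

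The direction was also counted by level. Among the 20 genes with an average of at least 1 per 10000, 18 were higher in SHR, against 54.5% of the 1676 genes of that level, and 2 lower, against 45.5%. The lower genes were Txnrd1 and Gstm7, and neither differed by 1.5-fold. At least 1.5-fold higher were 3 of the 20, against 10.3% of all genes of that level, and 0 were at least 1.5-fold lower, against 11.6%. Among the 21 genes between 0.1 and 1, 14 were higher in SHR, while 28.8% of all 5945 genes of that range were. Of the 19 redox genes above 0 but under 0.1, 16 were lower in SHR, where 70.2% of all 8768 genes of that range were lower.

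**Figure D2:**
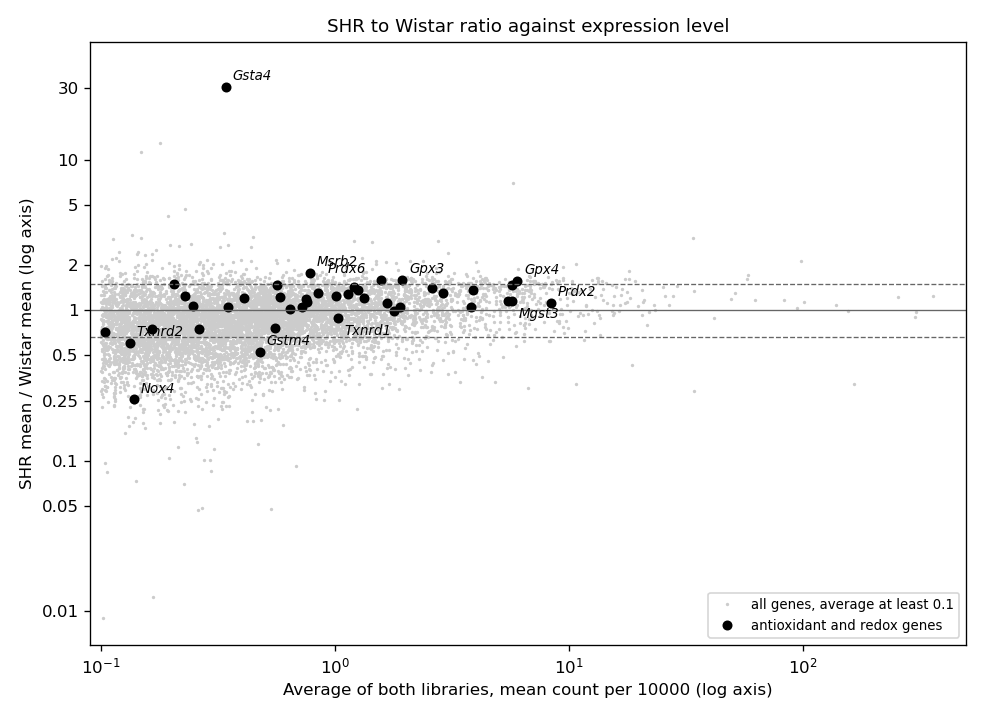
Ratio of the SHR to the Wistar mean against the average of both libraries (both log axes), for the 7621 genes past the minimum (grey) and the 41 redox genes (black). Dashed lines mark a 1.5-fold difference and the solid line equal means; Gsta4 has the highest ratio of all, and Nox4 lies lowest of the redox genes.

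The direction also followed gene span, as it did over all genes. All genes of at least 0.1 per 10000 were ranked by span in the GRCr8 rat assembly, which was used for ranks only, and divided into 3 classes of the same size. In the class of the shortest genes 19 of 20 redox genes were higher in SHR, against 54.4% of all genes there. In the middle class it was 11 of 16 against 29.9%, and in the class of the longest genes 2 of 5 against 17.2%. The part of gene span in the differences was not tested.

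Gsta4, the glutathione transferase that conjugates the lipid aldehyde 4-hydroxynonenal, stood apart. Its mean was 0.0216 per 10000 in the Wistar neurons (counting interval 0.00961 to 0.0418) and 0.660 in the SHR neurons (0.594 to 0.731). The SHR mean was 30.5-fold higher, the largest ratio among the 7621 genes past the minimum, and the counting intervals were far apart. Gsta4 passed that minimum through its SHR mean alone, since its Wistar mean was under 0.1, so its rank depends on the library where it was high. By the difference of log2 of 1 plus the mean, 0.70, it ranked 16 among the rises, since the added 1 shrinks the difference of a gene of low mean. In abundance it ranked 10775 of all genes in Wistar and 2341 in SHR. Reads of alpha class transferases that are near copies of each other may not be assigned to the right gene. Gsta2 and Gsta5, the protein-coding genes next to Gsta4 on its chromosome, were at 0 in both libraries. A count of 0 allows a mean of up to 0.00765 in Wistar and 0.00543 in SHR (3 counts), for assigned reads only. On its other side, Fbxo9, a ubiquitin ligase subunit gene, was at 0.592 in Wistar and 0.584 in SHR, and Gclc, also a redox gene and the fifth protein-coding gene away, was at 0.632 and 0.480. No neighbour named here differed by 1.5-fold.

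Among the redox genes past the minimum, Gsta4 and Nox4 had the largest ratio in each direction. The 250 bases before the start of each are shown from RefSeq in build GRCr8, which is not the build of the deposited values. The Gsta4 window is chr8:87947015-87947264, plus strand, and the Nox4 window is chr1:150313639-150313888, plus strand. Capitals mark GC boxes (GGGCGG on either strand), a common binding motif of general promoter factors.
Gsta4: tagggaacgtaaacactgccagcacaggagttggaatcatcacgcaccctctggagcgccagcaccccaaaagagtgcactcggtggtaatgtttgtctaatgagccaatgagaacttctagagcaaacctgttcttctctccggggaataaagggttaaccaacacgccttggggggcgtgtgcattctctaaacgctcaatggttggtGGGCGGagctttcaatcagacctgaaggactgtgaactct
Nox4: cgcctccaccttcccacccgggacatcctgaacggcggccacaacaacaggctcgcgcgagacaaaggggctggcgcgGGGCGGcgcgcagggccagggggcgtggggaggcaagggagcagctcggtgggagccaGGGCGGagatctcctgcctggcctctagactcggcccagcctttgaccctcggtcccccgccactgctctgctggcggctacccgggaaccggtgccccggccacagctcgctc
The Gsta4 window held 1 GC box and 51.2% G and C, and the Nox4 window 2 GC boxes and 72.8%. Neither window held the ARE core TGACNNNGC on either strand. A GC box was in 32.4% of all 27457 promoter windows, in 63.0% of those of genes past the minimum and in 73.7% of those of redox genes past it.

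The other abundant glutathione transferases were less than 1.5-fold apart. Mgst3, a membrane-bound transferase and peroxidase, was the most abundant at 5.30 per 10000 in Wistar and 6.09 in SHR, 1.15-fold higher. Gstp1, the pi class enzyme, was at 3.71 and 3.90, with overlapping counting intervals. The mu class gene Gstm7 was nearly equal, at 1.80 and 1.76, and Gsto1, the omega class enzyme that reduces dehydroascorbate, was at 0.903 and 1.13. Among the transferases past the minimum, Gstm4 alone was lower by 1.5-fold or more, at 0.624 in Wistar and 0.328 in SHR, 1.90-fold lower with counting intervals apart. Under the minimum, Mgst1 and Gstt2 were also lower with counting intervals apart, at 0.0820 and 0.0680 in Wistar and 0.0349 and 0.0232 in SHR. Gstm1, Gstm6 and Gsta6 were between 0.204 and 0.691 in Wistar and between 0.252 and 0.818 in SHR. The mu class genes are close copies of each other, so reads of Gstm1, Gstm4, Gstm6 and Gstm7 may not be assigned to the right gene. Of the 21 transferase genes, 9 passed the minimum, 7 of them higher in SHR, against 34.4% of all genes past it. Gsta2, Gsta5, Gstm3, Gstm5 and Gsto2 were at 0 in both libraries.

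Among the enzymes that remove superoxide and peroxides, every gene past the minimum had a higher mean in SHR. Of all genes past the minimum 34.4% did, and of those averaging at least 1 per 10000 54.5% did. Sod1, the cytosolic copper-zinc dismutase, was at 3.31 per 10000 in Wistar (3.13 to 3.49) and at 4.48 in the SHR (4.31 to 4.66), 1.35-fold higher. Sod2, its mitochondrial manganese counterpart, was at 1.59 and 1.76, with overlapping counting intervals. Catalase (Cat), the peroxisomal enzyme, was at 1.21 and 1.46.

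The 3 glutathione peroxidases past the minimum were all higher in SHR, against 34.4% of all genes past it. Of all 8 glutathione peroxidases 3 were higher and 4 lower. The 4 were under 0.1 per 10000, where 70.2% of all genes were lower. Among them Gpx2 was at 0.0712 in Wistar and 0.0235 in SHR, with counting intervals apart. Gpx4, which reduces lipid hydroperoxides in membranes and holds back ferroptosis, had a mean of 4.71 per 10000 in Wistar (4.50 to 4.93) and 7.35 in SHR (7.12 to 7.58), 1.56-fold higher. Gpx3, the secreted peroxidase, was at 1.51 in Wistar and 2.39 in SHR, 1.59-fold higher. Gpx1, the cytosolic peroxidase, was at 0.740 and 0.954. Gpx4 was thus the leading glutathione peroxidase of these neurons in both strains, ranking 274 of all genes in Wistar and 168 in SHR.

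All 6 peroxiredoxins, the thiol peroxidases, passed the minimum and were higher in SHR, against 34.4% of all genes past it. All but Prdx4 averaged at least 1 per 10000, where 54.5% of all genes were higher. Prdx2, the cytosolic peroxiredoxin typical of neurons, was the most abundant redox gene in both libraries, at 7.89 per 10000 in Wistar and 8.85 in SHR. Prdx1 was at 5.08 and 5.87, and Prdx5 at 2.53 and 3.29. Prdx6, which also has phospholipase activity, showed the widest difference, 1.22 (1.11 to 1.34) against 1.93 (1.82 to 2.05), 1.58-fold. The mitochondrial Prdx3 was at 1.06 and 1.44, and Prdx4, of the endoplasmic reticulum, was nearly level at 0.705 and 0.743.

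In the thioredoxin and glutaredoxin systems 7 of the 10 genes had the higher mean in SHR, against 34.4% of all genes past the minimum. Among the 7 were all of the small redox proteins. The 3 thioredoxin reductases had the lower mean, as did 65.6% of all genes past the minimum. Txn1, cytosolic thioredoxin, was at 4.61 per 10000 in Wistar (4.40 to 4.83) and 6.80 in SHR (6.58 to 7.02), 1.47-fold higher. Mitochondrial Txn2 was at 0.997 and 1.27. Txnrd1, the cytosolic reductase, was at 1.09 in Wistar and 0.967 in SHR, with overlapping counting intervals. The mitochondrial Txnrd2 was at 0.165 and 0.10, 1.65-fold lower, and its counting intervals (0.128 to 0.211 and 0.0754 to 0.130) overlapped narrowly. Txnrd3 was at 0.121 and 0.0862, and the counting intervals of each of the 3 reductases overlapped. With the median ratio of all genes set to 1, Txnrd1 was higher in SHR by 0.018 in log2 difference. Gsr, the glutathione reductase, was at 0.165 and 0.244. Glrx5 and Glrx2, glutaredoxins of mitochondrial iron-sulfur cluster metabolism and thiol repair, were at 2.17 and 0.998 in Wistar and at 3.04 and 1.42 in SHR. Glrx3, the cytosolic monothiol glutaredoxin, was nearly equal at 1.87 and 1.94, and Glrx, the cytosolic dithiol glutaredoxin, was at 0.373 and 0.446.

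The methionine sulfoxide reductases repair oxidized methionine in proteins. Msrb2, the mitochondrial enzyme, was at 0.569 per 10000 in Wistar (0.496 to 0.648) and 1.00 in SHR (0.918 to 1.09), 1.76-fold higher. Msrb1, a selenoprotein, was at 0.458 and 0.676. Msrb3 and Msra were under the minimum, at 0.0867 and 0.00365 in Wistar and 0.0749 and 0.00385 in SHR.

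Of the 3 glutathione synthesis genes 2 were lower in SHR, where 71.2% of all genes averaging 0.1 to 1 per 10000 were lower. Gclc, the catalytic subunit of the rate-limiting glutamate-cysteine ligase, was at 0.632 per 10000 in Wistar (0.556 to 0.716) and 0.480 in SHR (0.424 to 0.541), 1.32-fold lower. Gclm, its modifier subunit, was at 0.713 and 0.802. Gss, which completes glutathione, was at 0.301 and 0.226, 1.33-fold lower, with overlapping counting intervals. Summed over the 3 genes, the level was 1.65 in Wistar and 1.51 in SHR.

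Nfe2l2 itself was scarce, at 0.0780 per 10000 in Wistar (0.0529 to 0.111) and 0.0184 in SHR (0.00885 to 0.0336). It was 4.25-fold lower in SHR with counting intervals apart. Both means were under 0.1, and 70.2% of all genes averaging above 0 and under 0.1 were lower in SHR. Keap1 was nearly equal at 0.636 and 0.648. Of the genes widely used as readouts of NRF2 activity, Nqo1, the quinone reductase, was at 0.339 and 0.358, and Hmox1, the inducible haem oxygenase, at 0.189 and 0.141, both with overlapping counting intervals. Hmox2, the constitutive haem oxygenase of neurons, was at 0.526 and 0.639. The ARE core TGACNNNGC, searched on both strands, was present in the 250 bases before the start in 6 of the 38 redox genes past the minimum that have a promoter entry (15.8%), in 13.4% of the 5910 promoters of genes past the minimum and in 10.2% of all promoter windows. The 6 sites are shown with up to 10 bases on each side and the match in capitals, because they let the levels of genes that carry the motif be read beside those that do not.
Prdx1: cagggaaagcGCTGAGTCAtaccccgccg
Gstp1: tccactgtgtTGACTCAGCatccggggcg
Gclm: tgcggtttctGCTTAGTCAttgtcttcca
Gstm7: gaggctagatTGACACAGCctgtc
Sod2: ggcgctgccgGCAGGGTCAgcgcctagct
Hmox2: gtcttggaagGCAGTGTCAgcttggccag
In GRCr8 the windows are chr5:135383761-135383789, plus strand for Prdx1, chr1:210769748-210769776, minus strand for Gstp1, chr2:213031953-213031981, plus strand for Gclm, chr2:198260320-198260343, minus strand for Gstm7, chr1:50050185-50050213, minus strand for Sod2 and chr10:11337689-11337717, minus strand for Hmox2. In Prdx1, Gclm, Sod2 and Hmox2 the match is on the strand opposite to the gene, and in Prdx1 and Gstp1 it also holds the AP-1 motif TGANTCA, which 6.36% of all promoter windows contain. Means of these genes were 1.15-fold (Prdx1), 1.05-fold (Gstp1), 1.13-fold (Gclm), 1.11-fold (Sod2) and 1.22-fold (Hmox2) higher in SHR and 1.02-fold lower in Gstm7. None of the 6 reached 1.5-fold. Of all 41 redox genes past the minimum, 5 were at least that much higher and 3 that much lower, against 5.22% and 26.5% of all genes. A set of 6 is too small to set apart from these shares. A match of letters is not a binding site, and elements outside the 250 bases were not searched for.

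The NADPH oxidases, which make superoxide or hydrogen peroxide instead of removing it, were low. Of the 5 subunit genes 4 were detected and lower in SHR, and 3 of these were under 0.1 per 10000, where 70.2% of all genes were lower. Nox4, the constitutively active oxidase, was the only one past the minimum, at 0.220 per 10000 in Wistar (0.176 to 0.272) and 0.0562 in SHR (0.0382 to 0.0798), 3.91-fold lower with counting intervals apart. Counted from the lowest ratio of SHR to Wistar it ranked 82 among the 7621 genes past the minimum. Nox4 passed that minimum through its Wistar mean alone, so its rank depends on the library where it was high. Cyba and Cybb, the membrane subunits of the phagocyte oxidase, were at 0.0562 and 0.0227 in Wistar and at 0.0126 and 0.00253 in SHR. The counting intervals of Cyba were apart. Nox1 was at 0.0147 and 0.00241, with overlapping counting intervals as for Cybb, and Nox3 was at 0 in both. Beside Cyba and Cybb, 9 of the 10 immune markers were lower in SHR, with Cd74 at 0.843 and 0.329, and C1qa at 0.138 and 0.00727. Among the fibroblast markers, lower in SHR in 7 of 7, Col3a1 was at 0.814 and 0.152. The part of cells of other types in the NADPH oxidase values was not tested.

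The remaining redox genes under the minimum were Gpx2, Gpx7, Gpx8, Gpx5, Gsta3, Mgst1, Mgst2, Gstt1, Gstt2, Gstt3, Gstt4, Nqo2 and Sod3, with means of at most 0.0840 per 10000 in Wistar (Gsta3) and 0.0732 in SHR (Gsta3). Gpx6 was among the 7 of the 67 genes at 0 in both libraries. Sod3, the extracellular dismutase, was at 0.0268 and 0.0115.

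Grouped by chemistry, after the values were seen, the 8 selenoproteins among the redox genes (Gpx1, Gpx2, Gpx3, Gpx4, Txnrd1, Txnrd2, Txnrd3 and Msrb1) were split, with 4 higher and 4 lower in SHR. Of the 7 past the minimum, Gpx1, Gpx3, Gpx4 and Msrb1 were higher and the 3 thioredoxin reductases lower, where 34.4% of all genes were higher and 65.6% lower. Txnrd1 changed sign with the median ratio set to 1. Of 7 mitochondrial enzymes, also grouped after the values were seen (Sod2, Prdx3, Txn2, Txnrd2, Glrx2, Glrx5 and Msrb2), 6 were higher in SHR. The exception was Txnrd2. Of all genes past the minimum 34.4% were higher. All of the 7 but Txnrd2 and Msrb2 averaged at least 1 per 10000, where 54.5% of all genes were higher.

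Of 96 other genes of redox metabolism listed in 7 groups, 87 are listed in the deposited files and 55 of these averaged at least 0.1 per 10000. Of these 55 genes, 24 were higher and 31 lower in SHR, against 34.4% and 65.6% of all genes past the minimum. At least 1.5-fold higher were 5, against 5.22% of all genes, and at least 1.5-fold lower were 12, against 26.5%. Their median ratio was 0.958, between that of all genes and that of the 41 redox genes. Iron storage was the most abundant of them. Fth1, ferritin heavy chain, was at 20.9 per 10000 in Wistar and 29.6 in SHR, 1.42-fold higher, and Mt3, the neuronal metallothionein, at 1.99 and 3.56, 1.78-fold higher. Of the thiol repair and sensing genes, Park7 (DJ-1, a sensor of oxidation) led at 3.82 and 5.19, and Ucp2, a mitochondrial carrier, was 1.53-fold higher in SHR, at 2.46 and 3.76. Among genes of cystine uptake and glutathione turnover, Glo1, which clears methylglyoxal with glutathione, was 1.56-fold higher, at 2.13 and 3.31. Slc7a11, the cystine transporter, was at 0.000399 in Wistar and 0 in SHR.

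NADPH supply was close to level when summed. Tkt, transketolase, led its group with 3.06 per 10000 in Wistar and 2.99 in SHR. The 8 genes of the group past the minimum summed to 10.1 and 9.92. Of these 8 genes, 6 were lower in SHR and 2 at least 1.5-fold lower, against 65.6% and 26.5% of all genes. The 2 were Nadk, at 0.388 in Wistar and 0.212 in SHR, and Me2, at 0.256 and 0.162. Among the Nfe2l2 partners, Sqstm1, an autophagy receptor that binds Keap1, was at 3.77 and 3.86, and Mafg, a small Maf partner of NRF2, was lower in SHR by just over 1.5-fold, at 1.51 and 1.01. Of the 13 other selenoprotein and selenocysteine synthesis genes past the minimum, 8 were lower in SHR, as were 65.6% of all genes past the minimum. The most abundant of the 13, Selenof, was at 2.75 and 3.19. Among the oxidases, Rac1, the GTPase partner of several NADPH oxidases, was at 2.08 and 2.73, and Maoa, the monoamine oxidase that makes hydrogen peroxide as it breaks down noradrenaline, was 1.60-fold lower in SHR, at 1.78 and 1.11.

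**Figure D3:**
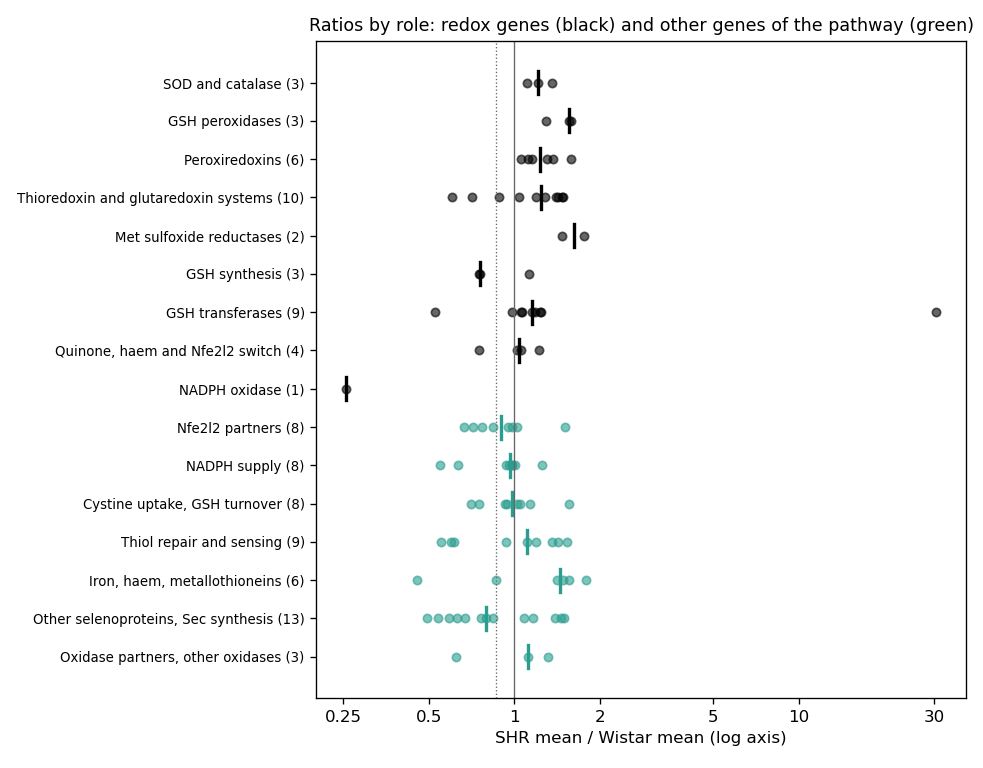
Ratio of the SHR to the Wistar mean (log axis) for each gene past the minimum, by role, with the number of genes in brackets: redox genes in black and the other genes of redox metabolism in green. Short bars are medians, the solid line marks equal means and the dotted line the median of all 7621 genes, 0.863; glutathione peroxidases, methionine sulfoxide reductases and the iron group have the medians farthest to the right.

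By median ratio the redox genes lay between 2 other groups of housekeeping genes, which were chosen after the values were seen. Of 90 nuclear genes of the respiratory chain past the minimum, 81 were higher in SHR with a median ratio of 1.34. Of 43 proteasome subunit genes, 19 were higher with a median ratio of 0.964, and 0 were at least 1.5-fold higher. A higher mean in SHR was therefore not particular to the redox genes.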

How the data were processed

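Stellate ganglion cells of each strain were sequenced as 1 library with 10x Genomics 3' chemistry. The submitters' processing notes name Cell Ranger 3.0.2, Seurat 3 and the Rnor_6.0 build. The authors deposited a natural log, ln(1 + m), where m is the count per 10000 counts of a cell averaged over the sympathetic neuron cluster. Cell filters and doublet treatment are not given in the sources used here, and the values hold no cell barcodes. The authors' own comparison, a table of fold changes and p-values, was not used, nor were its 2 columns of shares of cells, whose headers name no strain.

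Values were converted back to means with Python 3.11.15, NumPy 2.4.6, pandas 2.3.3 and SciPy 1.17.1. They summed to 10000 in each library over 25399 genes, and 4 lines that share a name with another were dropped. Ratios of means and SHR minus Wistar differences of log2(1 + m) were computed for genes averaging at least 0.1 per 10000.

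Numbers of neurons from 20 to 1000 were tried on low values shared by several genes. The largest number was taken that turned close to the best share of them into whole counts per neuron, within 0.01 and the rounding of the ninth decimal. The number taken did so for 59 of 60 values in Wistar and 87 of 90 in SHR, and the best unrelated number for 58.1% and 48.8%. Depths were then read from low values shared by 2 or more genes. On simulated data the method recovered the number of neurons, but the depth of only part of them. In the intervals a count was worth the average step over neurons, 0.00255 per 10000 in Wistar and 0.00181 in SHR, with the 65 Wistar neurons of unknown depth set at the largest step found.

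Promoter windows were matched by symbol for 58 of the 67 genes, and a span was found for 95.7% of the 7621 genes past the minimum. Redox genes averaging at least 1 per 10000, or at least 0.1 with a 1.5-fold difference, were named by rule, as were the most abundant of each group of other genes and those averaging at least 1 with a 1.5-fold difference. The rest were named after their values were seen. The genes and all lists were chosen with earlier results of these data known. Other scalings, pseudocounts, minimums and folds were tried.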

Additional observations from a re-analysis of the deposited data

How the results depend on the processing

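No paired analysis was possible because there is a single library of each strain, and for the same reason none could be left out. The count of 32 redox genes higher and 9 lower in SHR was 33 and 8 when transcripts of ribosomal proteins and of the mitochondrial genome were taken out of the totals and 34 and 7 with the median ratio of all genes past the minimum set to 1. The share of all genes higher in SHR, 34.4%, became 37.3% under the first and, by construction, 3810 of 7621 genes under the second, so that there the redox genes stood less far from it. The 5 genes at least 1.5-fold higher became 8 and 13, and the share of all genes, 5.22%, became 6.64% and 13.2%. With markers of other cell types out of the total, the log2 difference of each of 25 redox genes (those averaging at least 1 per 10000 or 1.5-fold apart) moved by less than 0.05. The sign of Gstm7 changed under both of the first scalings and that of Txnrd1 under the second.

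The median log2 difference, 0.10, was 0.23 with the median ratio set to 1, 0.21 and 0.020 with pseudocounts of 0.1 and 10, 0.026 over the redox genes above 0 in both libraries and 0.18 over those averaging at least 1 per 10000. With no minimum beyond a value above 0 in both libraries, 23 genes were lower and 13 at least 1.5-fold lower, against 66.0% and 35.8% of all genes. With a minimum of 1, 18 were higher and 2 lower, and 3 and 0 passed 1.5-fold. A difference of at least 25% of the lower mean was met by 15 higher and 7 lower genes (15.5% and 42.1% of all genes), and a 2-fold difference by 1 and 1 (0.761% and 11.3%). The pseudocount and the fold act by construction, a minimum changes the genes counted, and the cause of the moves under other scalings was not tested.

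Means under 0.1 per 10000 rest on few counts, and the numbers of neurons, 315 and 110, bound the precision of each mean.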
